A study of Homo sapiens with 30 samples.

Results

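Cells control their cholesterol through a feedback loop, and 6 genes of that loop were followed here across every library of the series. They are HMGCS1, SQLE and SC5D, which make sterols, INSIG1, which holds the loop in check, and SREBF1 and SREBF2, which encode the transcription factors that drive it. Members were chosen by gene symbol, and each of the 6 matched 1 of the 60664 rows of the deposited count table. All 6 passed the low-count filter in every fit, so none is missing from the tests below.

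The proteins SREBP-1 and SREBP-2 are made as precursors held in the membrane of the endoplasmic reticulum by SCAP and the INSIG proteins. When membrane cholesterol falls, SCAP carries the precursors to the Golgi, proteases release their active part, and it enters the nucleus and binds sterol regulatory elements in the promoters of sterol and lipid genes. INSIG1 is itself such a target, and so is SREBF2, so the loop feeds back on itself. HMGCS1 makes HMG-CoA at the head of the mevalonate pathway, SQLE oxidises squalene at a late rate-limiting step, and SC5D introduces a double bond near the end of cholesterol synthesis.

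The cells were FT293, a Flp-In T-REx derivative of the human embryonic kidney line HEK293. Each of a pair of lines carried a stably integrated gene, switched on by tetracycline, for TIA1a fused to GFP. TIA1 is a protein that binds RNA and helps to build stress granules. In one line the protein was wild type (WT), and in the other it had the Welander distal myopathy change (WDM), which is tied to an inherited muscle disease. Cytosol RNA came from untreated cells, from tetracycline-treated cells, and from cells given tetracycline and then 0.5 mM sodium arsenite for 60 min, in both lines. The granule fraction was a high-speed pellet captured through the GFP tag, in both lines, from cells given tetracycline alone or tetracycline and arsenite. Each of the 10 groups had 3 libraries, 18 from cytosol and 12 from granules. All libraries thus came from cells with the transgene, and no line without it is included. How many clones each line represents, and whether replicates were separate cultures, is not given in the sources used here, so p-values measure the spread between these libraries only.

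Total counts ran from 5906167 to 27419145 per library. TIA1 had 3 counts in all 30 libraries together and at most 1 in any, so induction of the transgene could not be checked in this table. Of 7 markers of the HEK293 line, 6 were above 1 CPM (counts scaled to library size) in every group, while none of the leukocyte, hepatocyte or endothelial markers was. Of 4 fibroblast markers 1 or 2 were above 1 CPM in each group, and their sum was 2.26 to 9.41 CPM in a library, against 289 to 1276 CPM for the HEK293 markers. A feature of 3 cytosol libraries touches the results on SREBF1 and SREBF2. In tetracycline-treated cytosol, WT replicates 2 and 3 and WDM replicate 2 held 211, 202 and 329 CPM of nuclear-retained RNAs, against 508 to 649 CPM in the other 3 libraries. NEAT1, a nuclear RNA, was at 46.7, 53.2 and 63.8 CPM in those 3 libraries and at 132, 153 and 168 CPM in the others.

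Promoter sequences are shown for INSIG1 and SC5D, both called lower with arsenite in cytosol, and for SREBF2, which was not called there. INSIG1 and SC5D did not move together in every comparison. In WDM granules their log2 changes with arsenite were 0.48 and -0.17. Each is the 250 bases before an annotated start of the gene (RefSeq, GRCh38.p14), printed 5′ to 3′ on the gene's strand. SC5D had another annotated start, whose overlapping window (chr11:121292602-121292851) is not shown. Capitals mark matches, on either strand, to a sterol regulatory element (TCACNCCAC), to the NF-Y box (CCAAT, read as ATTGG on the other strand) or to the E-box (CACGTG). The motifs do not overlap here.
INSIG1 promoter, chr7:155297628-155297877, plus strand: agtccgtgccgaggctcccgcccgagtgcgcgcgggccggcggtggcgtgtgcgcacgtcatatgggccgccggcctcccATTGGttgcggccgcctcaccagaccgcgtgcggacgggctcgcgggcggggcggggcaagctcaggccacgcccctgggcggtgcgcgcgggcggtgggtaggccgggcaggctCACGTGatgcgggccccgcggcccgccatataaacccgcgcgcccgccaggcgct
SC5D promoter, chr11:121292521-121292770, plus strand: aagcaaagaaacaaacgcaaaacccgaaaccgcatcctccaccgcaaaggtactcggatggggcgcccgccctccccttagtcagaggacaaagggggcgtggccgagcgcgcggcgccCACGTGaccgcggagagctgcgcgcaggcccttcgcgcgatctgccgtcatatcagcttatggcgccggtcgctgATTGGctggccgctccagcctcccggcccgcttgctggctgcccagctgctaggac
SREBF2 promoter, chr22:41832855-41833104, plus strand: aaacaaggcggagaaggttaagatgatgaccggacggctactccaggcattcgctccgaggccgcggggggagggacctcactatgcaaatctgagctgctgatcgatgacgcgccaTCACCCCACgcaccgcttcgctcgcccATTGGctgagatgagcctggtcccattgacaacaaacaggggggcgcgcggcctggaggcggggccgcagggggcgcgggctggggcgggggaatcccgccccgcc
The sterol element was found in the SREBF2 window and in none of the windows of HMGCS1, INSIG1, SC5D and SREBF1, and 0.883% of all 35116 promoters in the table held it. NF-Y boxes were found in INSIG1, SC5D, SREBF2 and 1 of the windows of HMGCS1, and in 32.0% of all promoters. The E-box was found in INSIG1 and SC5D and in 6.34% of all promoters. The promoter of SQLE, the member whose cytosol profile was nearest to that of INSIG1 (Pearson's r 0.898), was not examined. These matches describe the letters of a window and do not show binding. Only exact matches within the 250 bases were sought, so a window without a match does not show that a gene lacks the element.

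TIA1 is known to bind U-rich stretches in 3′ untranslated regions (UTRs). The most T-rich 30-base window of the 3′ UTR is therefore shown for INSIG1, SC5D and SREBF2. With tetracycline, INSIG1 was depleted from the granule fraction, SC5D more strongly so for its length, and SREBF2 was called enriched there. Capitals mark runs of 5 or more T.
INSIG1 3′ UTR window, chr7:155310190-155310219, plus strand: ttcTTTTTgcattcaTTTTTTacttttatt
SC5D 3′ UTR window, chr11:121310445-121310474, plus strand: tctcctgtcccTTTTTTTTTTTTTTTTTTT
SREBF2 3′ UTR window, chr22:41906317-41906346, plus strand: aataatgttggcattaTTTTTTaaTTTTTT
Such runs were present both in transcripts called enriched and in depleted ones. The enrichment calls depended on the cytosol libraries. Without those low in nuclear RNA, the log2 enrichment in WT with tetracycline was 0.03 for SREBF2 and -0.05 for SREBF1. The windows shown held 21 T in INSIG1, 23 in SC5D and 18 in SREBF2. The window of SREBF1, also called enriched in WT granules with tetracycline, held 24. That of HMGCS1, which was depleted there, held 25. SC5D had 47 overlapping TTTTT matches in its 3′ UTR, HMGCS1 32, INSIG1 21, SREBF1 18, SREBF2 9 and SQLE 4, against a median of 7 in the 3′ UTRs of 13584 coding genes. SC5D had the longest 3′ UTR, 5898 bases, followed by HMGCS1 (3661 bases), INSIG1 (1965), SREBF2 (1645), SREBF1 (1288) and SQLE (338). The median over coding genes was 1334 bases. The TTTTT counts were not scaled to these lengths, so their order is not one of density. The transcripts of SREBF1 and SREBF2 were GC-rich, at 63.2% and 58.0%, while those of the other genes lay between 36.9% (SC5D) and 46.5% (SQLE).

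Compared per kilobase of transcript, untreated WT cytosol held most INSIG1, at 97.4 ± 5.09 CPM per kilobase (SD, n = 3), and then SQLE at 72.7 ± 5.33 and HMGCS1 at 36.0 ± 2.48. The genes of the transcription factors were lower, SREBF2 at 17.1 ± 0.871 and SREBF1 at 9.65 ± 0.701 CPM per kilobase. SC5D was lowest at 7.69 ± 0.786 CPM per kilobase, and SREBF1 and SC5D were the neighbours closest to each other's spread. The WDM line had the same order, from INSIG1 at 98.5 ± 0.587 to SC5D at 8.45 ± 0.250 CPM per kilobase. In the WT granule fraction with tetracycline alone this order was not kept. INSIG1 (25.8 ± 2.96 CPM per kilobase), HMGCS1 (24.6 ± 2.11), SREBF2 (23.5 ± 3.29) and SQLE (23.0 ± 3.02) then lay within their spread of each other, above SREBF1 (14.4 ± 0.926) and SC5D (2.70 ± 0.463).

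**Figure D1:**
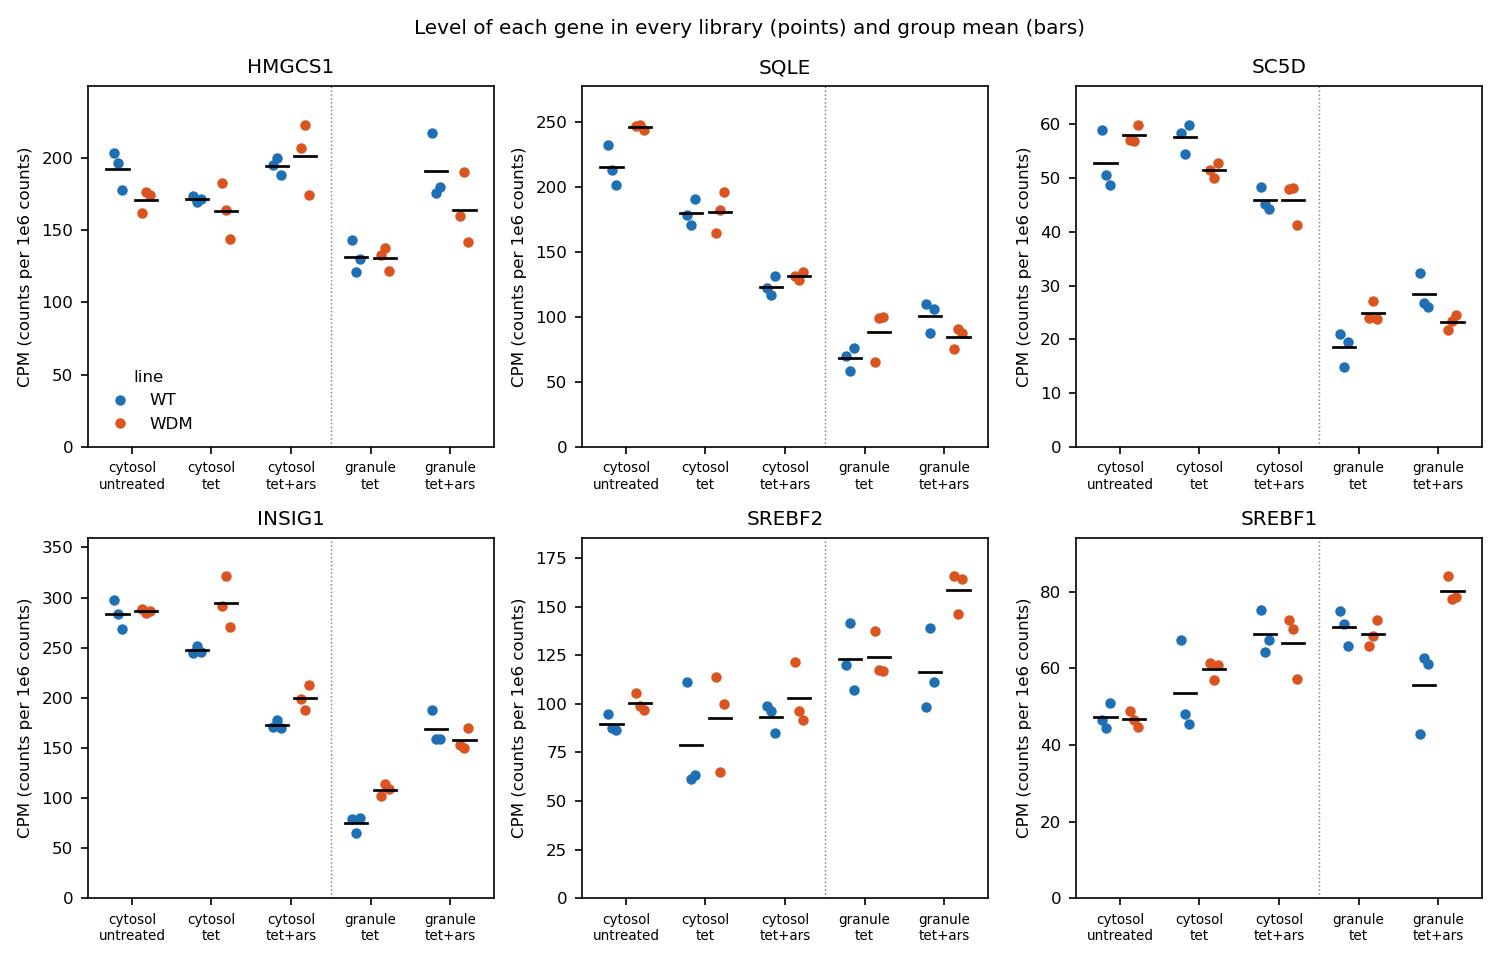
Level of each gene in CPM (vertical axes, starting at 0) in the 30 libraries, by fraction and treatment. Points are libraries (blue WT, orange WDM), bars are means of 3, tet is tetracycline and ars arsenite. INSIG1, SQLE and SC5D step down with arsenite in cytosol, and INSIG1 is higher with arsenite than without it in the granule fraction of both lines.

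After an hour of arsenite, cytosol of both lines held less INSIG1, SQLE and SC5D RNA, while HMGCS1, SREBF1 and SREBF2 were not called. INSIG1, the ER anchor of the pathway, was at 244, 251 and 246 CPM in the WT libraries with tetracycline and at 171, 178 and 170 CPM with arsenite. In WDM it was at 291, 321 and 270 CPM and then at 199, 188 and 213 CPM. No arsenite library reached any library without arsenite in either line. INSIG1 fell by 36.4% in WT (log2 fold change -0.65, SE 0.0799, edgeR Benjamini-Hochberg adjusted p 1.94e-05) and by 36.3% in WDM (log2 fold change -0.65, edgeR adjusted p 2.35e-05).

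SQLE, the squalene epoxidase, stepped down as well. Its libraries read 178, 171 and 190 CPM with tetracycline and 122, 116 and 131 CPM with arsenite in WT, and 164, 182 and 196 CPM against 131, 128 and 134 CPM in WDM. The groups did not overlap in either line. The log2 fold changes were -0.68 (SE 0.0796, edgeR adjusted p 1.47e-05) and -0.55 (SE 0.0794, edgeR adjusted p 9.01e-05). SC5D, the sterol desaturase, was the third. It went from 58.4, 54.5 and 59.8 CPM to 48.2, 45.2 and 44.2 CPM in WT, giving a log2 change of -0.46 (SE 0.0874, edgeR adjusted p 0.000815). In WDM it went from 51.4, 49.9 and 52.8 CPM to 48.0, 48.2 and 41.3 CPM, giving a log2 change of -0.25 (SE 0.0875, edgeR adjusted p 0.0355), a call that held in 5 of 14 alternative analyses and was lost without any 1 of the 3 tetracycline libraries or arsenite replicate 1 or 3. So 3 of 6 genes were called lower in each line, where 15.4% of all 16670 genes tested were called lower in WT and 14.8% in WDM. The CPM are relative to the library total, and the fold changes are further scaled by the TMM factors of the fit. A smaller share of cells with the RNA, fewer copies per cell and movement out of the cytosol extract thus cannot be told apart. Of 3 tested nuclear-retained RNAs, 2 rose in WT and 1 in WDM in the same comparison, and of 13 mitochondrial transcripts 6 fell in WT and 4 in WDM. Their part in the members' values was not tested.

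HMGCS1, the synthase at the head of the pathway, had 172 ± 2.06 CPM with tetracycline and 195 ± 5.80 CPM with arsenite in WT, and 163 ± 19.3 against 202 ± 24.9 CPM in WDM (SD, n = 3). Its log2 fold changes were 0.05 (SE 0.0980) and 0.21 (SE 0.0981, edgeR adjusted p 0.104). In WT the libraries did not overlap in CPM, which do not use the TMM factors of the fit. SREBF1 had log2 fold changes of 0.23 (SE 0.111) and 0.07 (SE 0.111), with edgeR adjusted p of 0.118 and 0.66. SREBF2 had log2 fold changes of 0.13 (SE 0.191) and 0.06 (SE 0.190), with edgeR adjusted p of 0.652 and 0.827.

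The tetracycline libraries of SREBF2 were spread most of all. They read 111, 61.5 and 63.3 CPM in WT and 114, 64.8 and 100 CPM in WDM, and the 3 low values are those of the libraries low in nuclear-retained RNA. SREBF2 ranged only from 85.2 to 121 CPM in the 6 arsenite libraries and from 86.7 to 106 CPM in the 6 untreated ones. Leaving out those 3 low libraries leaves 1 WT and 2 WDM libraries with tetracycline, and leaving out the other 3, rich in nuclear RNA, leaves 2 WT and 1 WDM. A lone library is then assumed to vary like the other groups. Without the low libraries the arsenite difference of SREBF2 in WT, resting on the lone replicate 1, was -0.32 (edgeR adjusted p 0.115), and without the other 3 it was 0.41 (edgeR adjusted p 0.000999). In WDM it was called without the nuclear-rich libraries, at 0.54 (edgeR adjusted p 0.00121), which rests on the lone replicate 2. SREBF1 moved with the same libraries in WT, to -0.04 without the low ones and to 0.39 without the others (edgeR adjusted p 0.893 and 0.00279). Without WT replicate 1, which is among the nuclear-rich libraries, 5 genes were called in WT in place of 3. The part of nuclear RNA in these values was not tested.

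**Figure D2:**
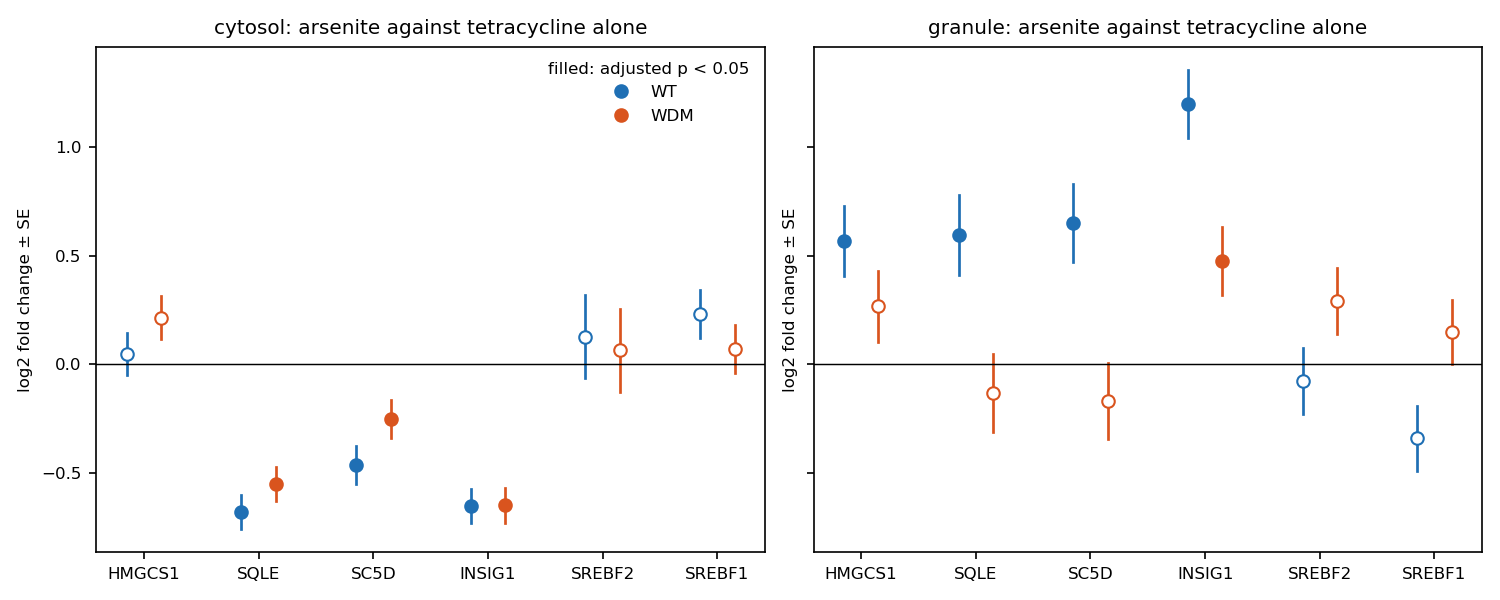
Log2 fold change with arsenite against tetracycline alone (vertical axis) for each gene, cytosol on the left and granule fraction on the right. Points are edgeR estimates with bars of 1 SE, filled where the adjusted p was under 0.05. SQLE, SC5D and INSIG1 lie below 0 in cytosol in both lines, and INSIG1 lies above 0 in granules in both.

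Set against untreated cells, which shows tetracycline and arsenite together, SQLE, INSIG1 and SC5D were lower and SREBF1 was higher. SQLE read 232, 213 and 201 CPM in untreated WT and 246, 248 and 243 CPM in untreated WDM, above every later library. It fell by 46.4% in WT and by 49.1% in WDM by the time of arsenite (edgeR adjusted p 7.19e-07 and 1.19e-07). INSIG1 fell by 42.8% in WT and fell by 33.4% in WDM (edgeR adjusted p 2.12e-06 and 1.96e-05), and SC5D fell by 18.3% in WT and fell by 24.3% in WDM (edgeR adjusted p 0.0166 and 0.00132). SREBF1 rose from 47.3 ± 3.43 to 69.0 ± 5.56 CPM in WT and from 46.7 ± 1.98 to 66.7 ± 8.33 CPM in WDM, giving a log2 change of 0.45 in each (SE 0.113 and 0.111, edgeR adjusted p 0.00517 and 0.00371). Each line thus had 3 genes lower and 1 higher. Over all genes 17.1% were lower and 15.2% higher in WT, and 20.0% lower and 19.0% higher in WDM. The SC5D call in WT was lost in 5 of 12 alternatives, among them leaving out WT untreated replicate 1 or WT arsenite replicate 2 or 3.

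Tetracycline alone, which switches on the transgene, gave fewer calls. In WDM, SQLE fell from 246 ± 2.21 to 181 ± 15.7 CPM, giving a log2 change of -0.42 (SE 0.0789, edgeR adjusted p 0.00337). SREBF1 rose from 46.7 ± 1.98 to 59.7 ± 2.50 CPM, giving a log2 change of 0.38 (SE 0.113, edgeR adjusted p 0.049), but was lost when any 1 of the 6 libraries was left out, with edgeR adjusted p of 0.0174 to 0.155 over all alternatives. SREBF2 was not called in either line, at -0.16 in WT and -0.09 in WDM on the log2 scale. Without the nuclear-rich libraries it was called lower in both, at -0.45 in WT and -0.57 in WDM (edgeR adjusted p 0.0036 and 0.00619), the WDM value resting on 1 tetracycline library, and SREBF1 in WDM was then not called, at 0.34 (edgeR adjusted p 0.0849). Without the low libraries SREBF1 was called higher in WT, at 0.50 (edgeR adjusted p 0.0172), again resting on 1 tetracycline library. In the main analysis 1 gene was lower and 1 higher of 6 in WDM, where 3.23% of all genes were lower and 3.07% higher. In WT none of the 6 was called, by edgeR or DESeq2, with 1 at an unadjusted p under 0.05, where 5.31% of all genes were called. SQLE in WT went from 215 ± 15.8 to 180 ± 9.76 CPM without overlap between the groups, giving a log2 change of -0.22 (edgeR adjusted p 0.109). The test of the difference between the lines called none of the 6 (edgeR and DESeq2, 1 at an unadjusted p under 0.05), and 0.0180% of all genes. That difference was -0.20 for SQLE (log2, SE 0.112, edgeR adjusted p 1). For SC5D it was -0.32 (SE 0.124, unadjusted edgeR p 0.0176).

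The lines were also compared within cytosol. None of the 6 was called in untreated, tetracycline-treated or arsenite-treated cytosol, by edgeR or by DESeq2, against 9.78%, 12.6% and 10.4% of all genes, with 1, 2 and 1 of the 6 at an unadjusted p under 0.05. INSIG1 was 14.8% higher with tetracycline and 15.1% higher with arsenite in WDM, with no overlap of libraries (edgeR adjusted p 0.107 and 0.12). In untreated cells the WT mean was 283 ± 14.8 CPM and the WDM mean 287 ± 1.71 CPM. Whether the arsenite difference depended on the line was tested as an interaction, which called none of the 6 (edgeR and DESeq2, none at an unadjusted p under 0.05) and 0% of all genes. For INSIG1 that interaction was 0.00 on the log2 scale, for SQLE 0.13 (SE 0.112) and for SC5D 0.21 (SE 0.124).

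The granule fraction was compared with the cytosol of the same line and treatment, which gives for each RNA its enrichment in the pulled-down pellet. With tetracycline alone the RNAs of INSIG1, SC5D and SQLE were strongly depleted from it and that of SREBF2 was called enriched. INSIG1 read 79.2, 65.0 and 80.6 CPM in WT granules against 244, 251 and 246 CPM in WT cytosol, a log2 difference of -1.77 (SE 0.133, edgeR adjusted p 1.5e-12). In WDM granules it read 102, 114 and 109 CPM, a log2 difference of -1.44 (SE 0.131, edgeR adjusted p 1e-10). Granule levels were below every cytosol library in both lines. The pellet also differed from cytosol in nuclear and mitochondrial RNA. All 3 tested nuclear-retained RNAs were called higher in it with tetracycline, with list medians of 3.60 in WT and 3.13 in WDM on the log2 scale, and their sum was 2244 to 3566 CPM in the granule libraries against 202 to 649 CPM in cytosol. Of 13 mitochondrial transcripts 5 were higher in WT and 12 in WDM, with medians of 1.40 and 2.37. With arsenite the medians were 1.68 and 1.94 for nuclear RNAs and 0.04 and 0.73 for mitochondrial ones. The part of these RNAs in the members' values was not tested.

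SC5D read 21.0, 14.9 and 19.5 CPM in WT granules and 24.0, 27.1 and 23.8 CPM in WDM granules, below all of its cytosol libraries. Its log2 differences from cytosol were -1.69 in WT and -1.04 in WDM (edgeR adjusted p 1.15e-11 and 9.81e-08). SQLE read 69.6, 58.5 and 76.2 CPM in WT granules and 65.3, 99.4 and 100 CPM in WDM granules, again without overlap, with log2 differences of -1.44 and -1.02 (edgeR adjusted p 3.3e-09 and 1.49e-06). HMGCS1 was less depleted, by -0.43 in WT and -0.33 in WDM on the log2 scale (edgeR adjusted p 0.00838 and 0.0417), and the WDM call held in 5 of 14 alternatives, not without cytosol replicate 1 or 2 or granule replicate 1 or 3.

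The transcription factor genes went the other way. SREBF2 read 120, 141 and 107 CPM in WT granules and 138, 118 and 117 CPM in WDM granules, a log2 enrichment of 0.61 (SE 0.181, edgeR adjusted p 0.00326) and 0.41 (SE 0.181, edgeR adjusted p 0.0449). In WT these libraries overlapped cytosol replicate 1, at 111 CPM. Without the cytosol libraries low in nuclear RNA, which leaves 1 WT and 2 WDM cytosol libraries, the enrichment of SREBF2 was 0.03 in WT and 0.10 in WDM, and neither was called (edgeR adjusted p 0.89 and 0.582). SREBF1 had a log2 enrichment of 0.36 in WT (edgeR adjusted p 0.0207) and 0.21 in WDM (edgeR adjusted p 0.178), and the WT value was -0.05 without those libraries. The WT call of SREBF1 was also lost without cytosol replicate 2 or 3 or granule replicate 1 or 2, and the WDM call of SREBF2 without cytosol replicate 2 or 3 or any 1 granule library. Of the 6 genes, 4 were called lower and 2 higher in WT, where 36.2% of 18141 genes were lower and 39.5% higher. In WDM 4 were lower and 1 higher, where 35.3% of genes were lower and 35.8% higher. Most genes were called one way or the other in this comparison.

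Granule enrichment rose with transcript length over all coding genes. Spearman's rho across 13584 coding genes was 0.474 in WT and 0.499 in WDM with tetracycline, and 0.597 and 0.522 with arsenite; genes are not independent replicates and no p is given. The members differed in how they lay about this trend. With tetracycline, the coding genes nearest in length to INSIG1 and SQLE (2860 to 3239 bases, 907 genes) had a median log2 difference of -0.27 in WT, and INSIG1 at -1.77 was above only 6.73% of them and SQLE at -1.44 above 11.1%. SC5D stood out more, since the 905 coding genes of 5956 to 7038 bases had a median of 0.47 and SC5D at -1.69 was above 1.66% of them. HMGCS1, at -0.43 where the genes of its length had 0.38, was above 20.8%. SREBF2 and SREBF1 lay in the middle of the genes of their lengths, above 59.3% and 54.1%.

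**Figure D3:**
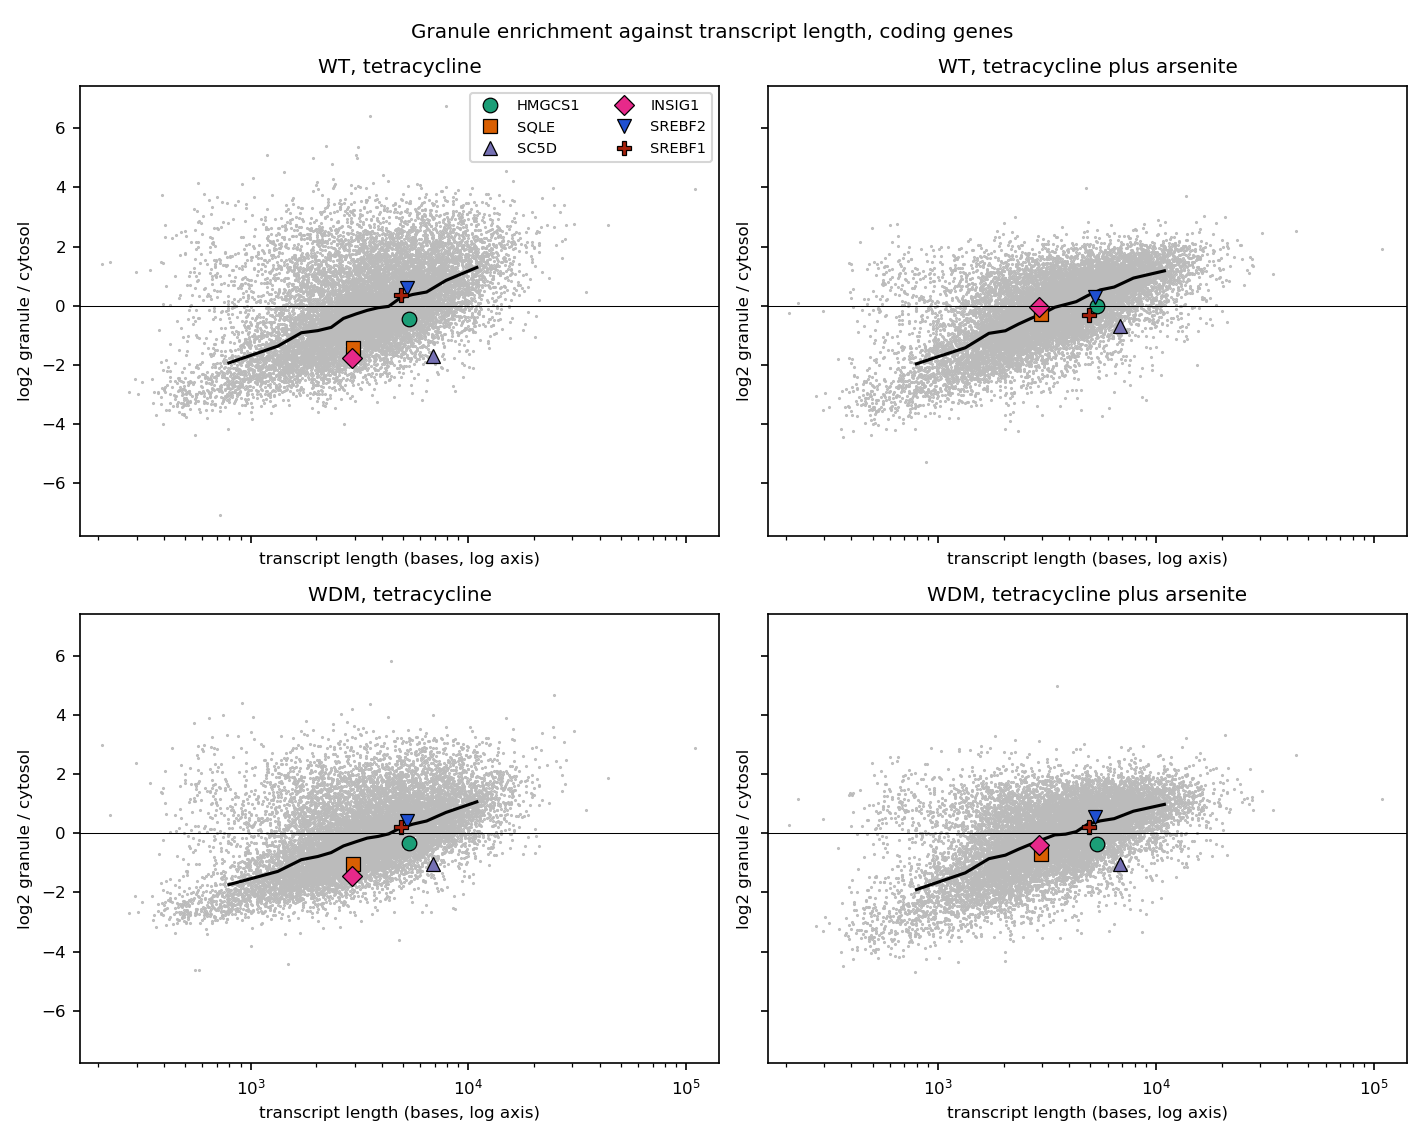
Log2 difference between granule fraction and cytosol (vertical axis) against transcript length in bases (horizontal log axis) for 13584 coding genes (grey), in both lines without and with arsenite. The black line joins medians of 15 bins by length and coloured markers are the 6 genes; INSIG1 and SQLE move from below the line without arsenite to near it in WT with arsenite, while SC5D stays below it in each panel.

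With arsenite, when stress granules form, INSIG1 was no longer depleted from the WT granule fraction. Its WT granule libraries read 188, 159 and 159 CPM and the matching cytosol libraries 171, 178 and 170 CPM, which overlapped, with a log2 difference of -0.02 (SE 0.128, edgeR adjusted p 0.871). In WDM, granule libraries at 153, 150 and 170 CPM remained below cytosol at 199, 188 and 213 CPM, a log2 difference of -0.41 (SE 0.128, edgeR adjusted p 0.00597), which was lost without the low-count filter. SQLE had a log2 difference of -0.28 in WT (edgeR adjusted p 0.112) and -0.69 in WDM (edgeR adjusted p 0.000269). SC5D was still depleted in both lines, by -0.69 and -1.04 (edgeR adjusted p 4.71e-05 and 8.27e-08). HMGCS1 was at -0.02 in WT (edgeR adjusted p 0.915) and -0.36 in WDM (edgeR adjusted p 0.0263). That WDM call held in 6 of 12 alternatives, not without cytosol replicate 2 or granule replicate 1 or 3.

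SREBF2 was enriched by 0.31 in WT (edgeR adjusted p 0.119) and by 0.56 in WDM (edgeR adjusted p 0.00681). SREBF1 was below cytosol in WT, at -0.31 (edgeR adjusted p 0.0412), a call that 6 of 12 alternatives kept and that leaving out granule replicate 1 or cytosol replicate 1 ended. In WDM it was at 0.20 (edgeR adjusted p 0.183). In WT 2 of 6 genes were lower and none higher, where 35.5% of all genes were lower. In WDM 4 of 6 were lower and 1 higher, where 35.7% of genes were lower and 36.3% higher.

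Within the granule fraction, arsenite raised INSIG1 in both lines. Between the WT libraries given above, INSIG1 rose from 74.9 ± 8.60 to 169 ± 16.9 CPM, a 2.29-fold increase (log2 1.20, SE 0.157, edgeR adjusted p 6.81e-06). The WDM granules went up from 108 ± 5.93 to 158 ± 10.9 CPM, a 1.39-fold increase (log2 0.48, SE 0.155, edgeR adjusted p 0.0174). The WDM call was lost without WDM tetracycline replicate 1 (0.41, edgeR adjusted p 0.0566) or WDM arsenite replicate 3 (0.40, edgeR adjusted p 0.0883). The WT call held in each of 12 alternatives.

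HMGCS1, SQLE and SC5D also rose in WT granules with arsenite and were not called in WDM. HMGCS1 went from 131 ± 11.3 to 191 ± 22.8 CPM (log2 0.57, edgeR adjusted p 0.00965), SQLE from 68.1 ± 8.94 to 101 ± 12.0 CPM (log2 0.60, edgeR adjusted p 0.0146) and SC5D from 18.5 ± 3.18 to 28.3 ± 3.45 CPM (log2 0.65, edgeR adjusted p 0.00763). In WDM the values were 0.27 for HMGCS1, -0.13 for SQLE and -0.17 for SC5D, with edgeR adjusted p of 0.206 to 0.595. These 3 WT calls rest on 1 library, and those of HMGCS1 and SQLE were also lost without tetracycline replicate 3 (HMGCS1), tetracycline replicate 2 or arsenite replicate 3 (both SQLE). WT arsenite replicate 1 read 217, 110 and 32.3 CPM for HMGCS1, SQLE and SC5D and was the highest of its group for each. Without it 1 gene, INSIG1, was called in place of 4, and the values fell to 0.42, 0.49 and 0.50 (edgeR adjusted p 0.0714, 0.0898 and 0.0593). That library also stood apart in base composition. Over 13584 coding genes its difference from the other libraries of the group had a Spearman's rho of -0.706 with GC content, the largest size among the 30 libraries, and its SREBF1 value was the lowest of the group, at 43.0 CPM against 62.6 and 61.0 CPM. The part of base composition in these results was not tested. Counting all 6 genes, 4 were higher in WT, where 16.5% of 18366 genes were higher, and 1 was higher in WDM, where 18.7% were.

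Whether the arsenite change differed between the fractions was tested directly as an interaction. INSIG1 had the largest value among the 6 in both lines, 1.74 in WT (SE 0.183, edgeR adjusted p 8.54e-07) and 1.04 in WDM (SE 0.181, edgeR adjusted p 0.000247), meaning that its granule-to-cytosol ratio rose 3.34-fold and 2.05-fold. The median over all genes was -0.21 in WT and -0.17 in WDM, so relative to it the positive values given here are larger, and the negative ones smaller, by that amount. Among the 907 coding genes of similar length, INSIG1 was above 99.4% in WT and 95.9% in WDM. Both calls held in every alternative tried, including those without the libraries low or high in nuclear RNA.

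In WT, SQLE at 1.16 (SE 0.222, edgeR adjusted p 0.000315) and SC5D at 1.00 (SE 0.193, edgeR adjusted p 0.000345) were also called higher. SREBF1 was called lower in WT, at -0.67 (SE 0.194, edgeR adjusted p 0.00938), which became -0.30 (edgeR adjusted p 0.407) without the cytosol libraries low in nuclear RNA, with 1 WT tetracycline cytosol library left. Without the low-count filter SREBF1 was not called either, at -0.47 (edgeR adjusted p 0.173), and HMGCS1 was, at 0.62 (edgeR adjusted p 0.0403). In WDM the values were 0.33 for SQLE (SE 0.221, edgeR adjusted p 0.295), 0.00 for SC5D and -0.01 for SREBF1. With the filter, HMGCS1 and SREBF2 were called in neither line. SREBF2 in WT, at -0.30, was called without cytosol WT tetracycline replicate 1, at -0.59 (edgeR adjusted p 0.0469). The nuclear-retained RNAs had list medians of -1.46 in WT and -0.89 in WDM for this interaction, and mitochondrial transcripts -1.37 and -1.74. In all, 3 of 6 were higher and 1 lower in WT, where 12.0% of genes were higher and 19.4% lower. In WDM 1 was higher, where 7.66% were.

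The lines were then compared within the granule fraction. With tetracycline alone INSIG1 was higher in WDM, at 108 ± 5.93 CPM against 74.9 ± 8.60 CPM, a log2 difference of 0.53 (SE 0.156, edgeR adjusted p 0.0414). No libraries overlapped, but only 4 of 12 alternatives kept the call, and leaving out any of the 3 WT libraries or WDM replicate 2 or 3 ended it. This is 1 of 6 genes higher, where 2.60% of all genes were higher. SC5D was at 24.9 ± 1.84 against 18.5 ± 3.18 CPM (0.44, edgeR adjusted p 0.186), also without overlap.

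With arsenite none of the 6 was called by edgeR and 1 by DESeq2, with 3 at an unadjusted p under 0.05, where 7.95% of all genes were called. SREBF1 stood at 80.2 ± 3.33 CPM in WDM granules beside 55.5 ± 10.9 CPM in WT granules, a log2 difference of 0.45 (SE 0.148, edgeR adjusted p 0.059), and SREBF2 at 159 ± 10.8 against 116 ± 20.8 CPM, a log2 difference of 0.37 (SE 0.151, edgeR adjusted p 0.128). No libraries overlapped for either gene. The other 4 genes were lower in WDM by 0.19 to 0.38 on the log2 scale, with edgeR adjusted p of 0.177 to 0.465.

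Tests of whether the arsenite change in granules differed between the lines called none of the 6 (edgeR and DESeq2, 4 at an unadjusted p under 0.05) and 0% of all genes. The values were -0.82 for SC5D (SE 0.252), -0.73 for SQLE (SE 0.256), -0.72 for INSIG1 (SE 0.219), -0.30 for HMGCS1, 0.37 for SREBF2 and 0.49 for SREBF1, with edgeR adjusted p of 0.254 to 0.599. A larger rise of INSIG1, SQLE and SC5D in WT granules than in WDM granules is thus not established by this test. The line difference in granule enrichment called none of the 6 either, with tetracycline (1 at an unadjusted p under 0.05) or with arsenite (2), by edgeR or by DESeq2, and 0.00551% of all genes in each. Those at an unadjusted p under 0.05 were INSIG1 and SREBF1 with arsenite and SC5D with tetracycline. SC5D was at 0.64 (SE 0.194, unadjusted edgeR p 0.00242), above 93.5% of coding genes of like GC content.

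Under arsenite these line differences, none of which was called, were positive in the GC-rich pair and negative in the other 4 genes. The line difference in granule enrichment was 0.52 for SREBF1 and 0.25 for SREBF2, the GC-rich pair, and -0.34 to -0.42 for the other 4. Among those 4 the order was not that of GC content, since SQLE, the richest in GC, had the lowest value and was above only 6.96% of coding genes of like GC content. Across 13584 coding genes it had a Spearman's rho of 0.63 with GC content, given without a p because the genes share the same 12 libraries. The coding genes with the GC content of SREBF1 (60.87 to 63.6%) had a median of 0.26 and those with that of SC5D (30.73 to 37.41%) a median of -0.25, so the members lay on the same side as genes of like composition. With tetracycline alone the signs were the other way, and again none was called. SREBF1 was then at -0.15, SREBF2 at -0.21 and the other 4 at 0.10 to 0.64. Spearman's rho with GC content was -0.258 in that comparison. SQLE, INSIG1 and SC5D, at 0.42, 0.32 and 0.64, were above 92.3%, 85.0% and 93.5% of coding genes of like GC content. The medians of those genes were -0.03, 0.00 and 0.19. HMGCS1, SREBF1 and SREBF2 were above 44.4%, 42.4% and 36.4% of theirs. The arsenite comparison includes WT granule arsenite replicate 1, whose difference from its group had a rho of -0.706 with GC content. The part of composition in the members' values was not tested.

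**Figure D4:**
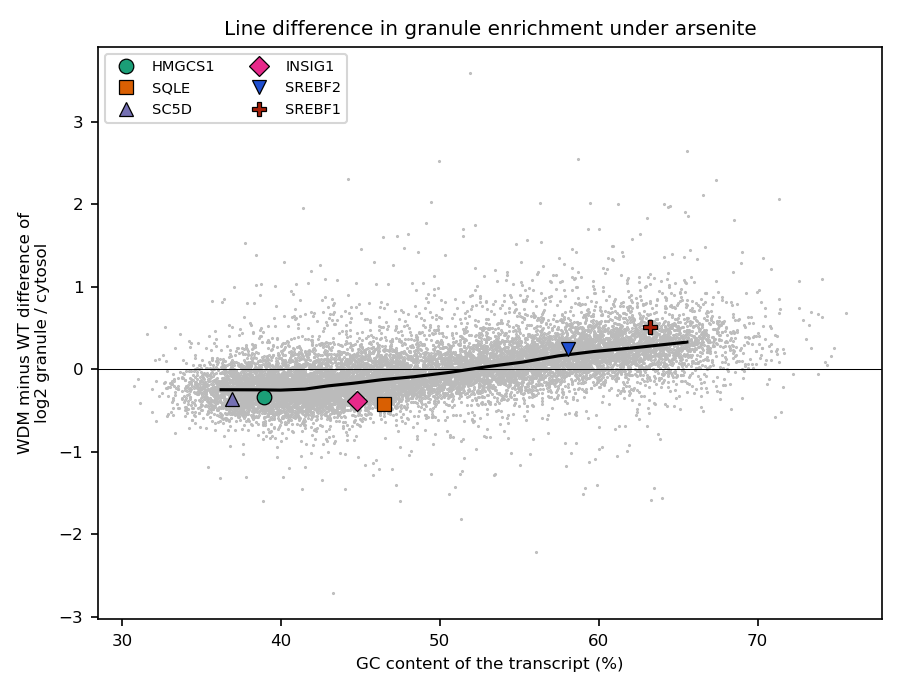
Difference between the lines, WDM minus WT, in log2 granule-to-cytosol ratio under arsenite (vertical axis) against GC content of the transcript in percent (horizontal axis) for 13584 coding genes (grey). The black line joins medians of 15 bins by GC content. SREBF1 and SREBF2 lie above 0 and the other 4 genes below it, and none of these values was called.

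The rest of the pathway was described from lists of its genes that do not include the 6. Of 16 tested enzymes of cholesterol synthesis, 7 fell with arsenite in WT cytosol, 5 in WDM cytosol, and none rose, with list medians of -0.27 and -0.24 on the log2 scale against -0.02 and -0.00 over all genes. Over all genes 15.4% fell and 13.7% rose in WT, and 14.8% fell and 14.1% rose in WDM, and these shares are the background for each list in cytosol. MSMO1, a demethylating oxidase of sterol intermediates, fell by 0.59 in WT and 0.46 in WDM on the log2 scale (edgeR adjusted p 0.000298 and 0.00247). LBR, a sterol reductase that is also a nuclear envelope protein, fell by 0.58 and 0.45 (edgeR adjusted p 5.42e-05 and 0.00052).

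Of 9 genes of SREBP processing and INSIG partners, 6 fell in WT cytosol, 3 in WDM cytosol and none rose. MBTPS1, the protease that first cuts the precursors, fell by 0.38 and 0.34 on the log2 scale (edgeR adjusted p 0.00085 and 0.00195). SCAP, their escort, was at -0.10 and -0.15 and was not called, nor was INSIG2, at -0.25 and -0.24. Of 8 genes of sterol uptake and trafficking, 4 fell in each line, and in WDM 1 rose. NPC2, a lysosomal cholesterol carrier, fell by 0.65 and 0.62 (edgeR adjusted p 0.000586 and 0.00102).

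Among 7 genes of sterol efflux, esterification and LXR signalling, 3 fell and 1 rose in each line. The gene that rose was MYLIP, a ubiquitin ligase induced by LXR, at 0.26 in WT and 0.49 in WDM (edgeR adjusted p 0.0277 and 0.00039). Of 10 SREBP-1 targets of fatty acid synthesis 3 fell in each line and none rose, namely FADS1, FADS2 and SCD, all desaturases. That count is 3 of 10 beside 15.4% and 14.8% of all genes lower, and the list medians were -0.08 and -0.03, near those of all genes.

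In WT granules arsenite moved genes of these lists both ways, where 16.5% of all genes were higher and 14.1% lower. Of the cholesterol synthesis enzymes 2 rose and 4 fell, LBR rising by 1.44 and HSD17B7 falling by 0.99 on the log2 scale (edgeR adjusted p 1.77e-05 and 0.00106). Of the SREBP processing genes 4 rose and none fell, SPRING1, a factor that supports the protease, at 1.03 (edgeR adjusted p 6.07e-05). In WDM granules, where 18.7% of all genes were higher and 17.7% lower, 1 synthesis enzyme rose and 5 fell, and 1 processing gene, SPRING1 at 0.74 (edgeR adjusted p 0.00089), rose. Of 16 cholesterol synthesis enzymes, 15 were depleted from WT granules and from WDM granules with tetracycline, and 13 in each with arsenite, with list medians between -0.95 and -1.22 on the log2 scale. Over all genes 36.2% and 35.3% were lower with tetracycline in WT and WDM, and 35.5% and 35.7% with arsenite. The fraction-by-arsenite difference in WT was called higher for 6 of 9 processing genes and for 4 of 8 uptake genes, and lower for none of them, with list medians of 0.62 and 0.40 beside -0.21 over all genes, of which 12.0% were higher and 19.4% lower. Of the WT synthesis enzymes 4 were higher and 3 lower, with a median of -0.13. In WDM 1 of 9 processing genes was higher and none lower, 2 of 8 uptake genes were higher and 1 lower, and 1 synthesis enzyme was higher and 2 lower, where 7.66% of all genes were higher and 16.5% lower.

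**Figure D5:**
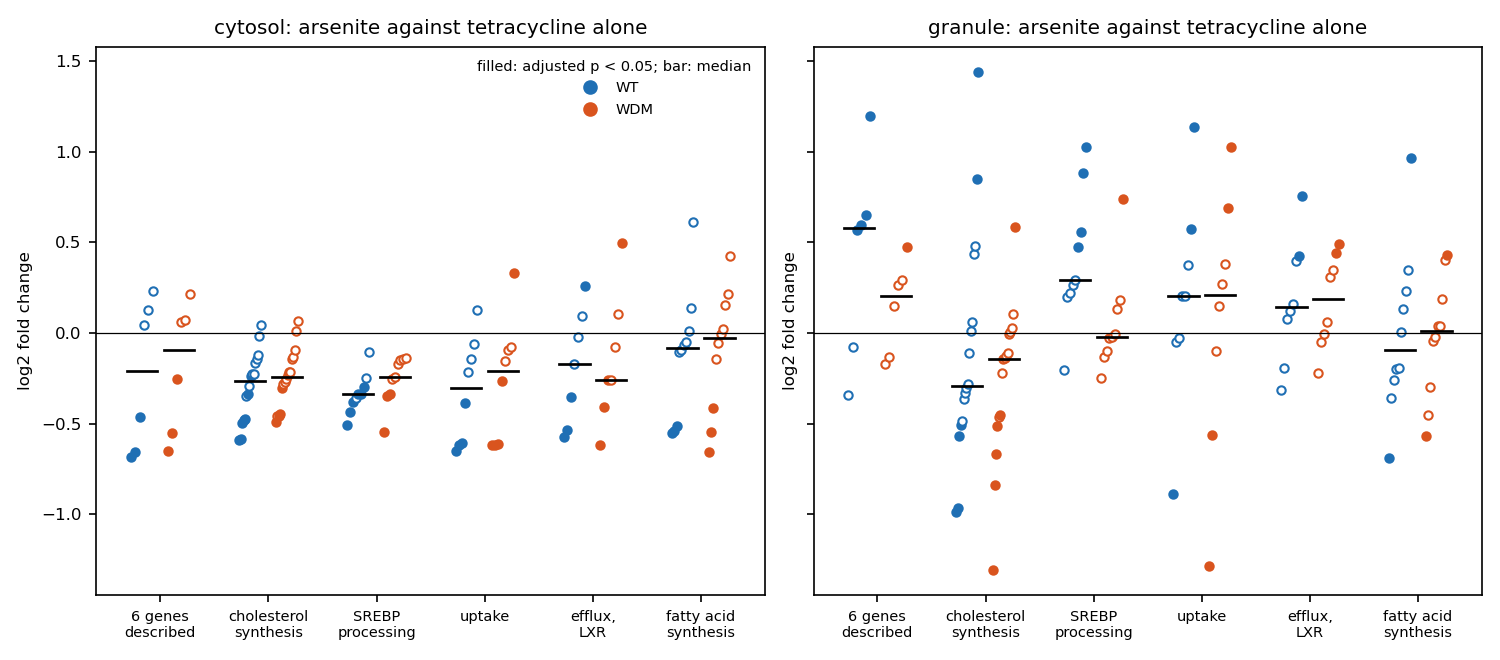
Log2 fold change with arsenite against tetracycline alone (vertical axis) for the 6 genes described and for the tested genes of 5 pathway lists, cytosol on the left and granule fraction on the right. Each point is a gene (blue WT, orange WDM, filled at an adjusted p under 0.05) and bars are medians; in cytosol none of the cholesterol synthesis genes is filled above 0.

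Profiles over the 18 cytosol libraries were compared by Pearson's r of log2 CPM, as a description without a p, since the libraries fall into 6 groups that the genes share. SQLE and INSIG1 resembled each other, with r of 0.898, and SQLE resembled SC5D with 0.825, while SQLE and SREBF1 ran opposite with -0.814. Among 11332 genes of at least 5 CPM the nearest to SQLE was IARS2 (0.971), followed by B4GAT1 (0.968) and LMAN1 (0.966), and IARS2 (0.965) was also the nearest to INSIG1, ahead of CD99L2 (0.961) and SUMF2 (0.960). SC5D was nearest to HSD17B12 (0.930), LGR4 (0.928) and TM9SF3 (0.921). SREBF2 was nearest to ATIC (0.966), MDC1 (0.962) and PTPN23 (0.960), and SREBF1 to SCAF1 (0.935), ZC3H4 (0.920) and SCRIB (0.914). The lowest SREBF2 values among the 18 libraries were those of the tetracycline libraries low in nuclear RNA. The part of those libraries in these r was not tested. HMGCS1 had no gene as near as these, its best being NKRF (0.829), UBR2 (0.777) and KANSL3 (0.764).

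The table places HMGCS1 (ENSG00000112972) at chr5:43287470-43313512 on the minus strand, SQLE (ENSG00000104549) at chr8:124998497-125022283 on the plus strand, INSIG1 (ENSG00000186480) at chr7:155297776-155310235 on the plus strand and SREBF1 (ENSG00000072310) at chr17:17810399-17837002 on the minus strand. SREBF2 (ENSG00000198911) is at chr22:41833079-41907307 and SC5D (ENSG00000109929) at chr11:121292681-121313410, both on the plus strand (GRCh38). Counts are sums over all exons of a gene. An unnamed gene (ENSG00000261604) overlaps 37.7% of the exon length of HMGCS1 on the opposite strand but had at most 6 counts in any library. SREBF2-AS1 overlaps 9.08% of SREBF2 exons, with at most 35 counts. RAI1 overlaps 6.75% of SREBF1 exons and had up to 6953 counts, so SREBF1 values are uncertain where the authors' strand setting, which is not given in the sources used here, could share reads between them.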

How the data were processed

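RNA was measured as stranded total RNA after rRNA removal, in 30 libraries. The authors deposited raw read counts per gene as 1 table, with a column per library, no normalization and no column left unmatched to a sample. Trimmomatic, STAR, Picard and featureCounts are named, with the build GRCh38 and no versions, in the submitters' processing notes; read filters and the strand setting of the counting are not given in the sources used here. Groups and replicate numbers came from the sample titles.

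Testing used R 4.3.3 with edgeR 4.0.16: filterByExpr (minimum count 10, minimum total 15), TMM factors, a robust quasi-likelihood fit of group means and Benjamini-Hochberg adjustment over all genes tested in a comparison, with calls at an adjusted p under 0.05. The 18 cytosol libraries (16670 genes), the 12 granule libraries (18366 genes) and the 24 tetracycline-treated libraries (18141 genes, for comparisons between fractions) were fitted separately. The 24 comparisons were pairs of groups or interactions. CPM are counts scaled to the library total, as means ± SD, and log2 fold changes come from the fit. A count of 0 to 3 corresponds to 0.109 to 0.508 CPM, and no member was near it. Replicate pairs differed by more than sampling noise (chi-square per degree of freedom 1.63 to 40.7), so each library counted once.

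Transcript length, GC content and overlaps came from the Ensembl canonical transcripts of GENCODE v44, and promoters from RefSeq. Gene coordinates matched the table's for all members but SREBF2. The canonical form need not be the one expressed. The scripts were tested on simulated counts. Figures were drawn with matplotlib 3.10.9.

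The members and the lists were chosen with earlier results of these data known. Named genes are the members, the 4 largest called genes of a list in a comparison, SCAP and INSIG2, and the 3 genes most like each member. A few genes of the lists are not reported here. Alternatives were DESeq2 1.42.0, scaling by RLE or by library size only, dropping the low-count filter, fitting only the groups compared, a block for the replicate number, leaving out each library in turn, and, chosen after seeing the data, leaving out the 3 tetracycline cytosol libraries lowest or highest in nuclear RNA.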

Additional observations from a re-analysis of the deposited data

Results flagged for a closer look

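These 5 results were singled out because the arsenite change differed between the fractions by a direct test of that difference. In WT the log2 difference was 1.74 for INSIG1, 1.16 for SQLE, 1.00 for SC5D and -0.67 for SREBF1, and in WDM it was 1.04 for INSIG1. The value for SREBF1 in WT moved with the cytosol libraries low in nuclear RNA, as given above, and it was not called without the low-count filter (-0.47, edgeR adjusted p 0.173). The other 4 were called in both of those analyses. No test for single outlying libraries was run, since each group held 3 libraries. Each library was instead left out in turn.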

How the results depend on the processing

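Of 45 called values of the members, 29 were called in every alternative, and of 2124 alternative values 2003 stayed on their side of the threshold, 76 lost a call, 28 gained one and 17 reversed. Of the 2003, 1891 kept their direction and 112 changed sign, around values under 0.1 (log2) with no call in either analysis compared, and were not counted as reversed. Library size alone moved the median of all genes by 0.133 for arsenite in WT cytosol, and dropping the low-count filter moved it by 0.206 (WT) and 0.171 (WDM) for fraction by arsenite. Counts of called members that moved by over 1.5 times were as follows. With library size alone, the line difference with tetracycline in cytosol went from 0 to 1, the tetracycline change from 0 to 1 in WT and from 2 to 1 in WDM, the line difference in granules with arsenite from 0 to 1 (DESeq2 also 1), and the WT granule-to-cytosol difference with arsenite from 2 to 1 (DESeq2 and RLE factors also 1). With only the groups compared, the untreated line difference went from 0 to 2, the line difference in granules with tetracycline from 1 to 0 and the WDM granule-to-cytosol difference with tetracycline from 5 to 3. With no low-count filter, the line difference in granules with tetracycline went from 1 to 0 and the WDM granule-to-cytosol difference with arsenite from 5 to 3. Without the 3 libraries highest in nuclear RNA the WT arsenite count in cytosol was 5 and the WT tetracycline count 1, and without the 3 lowest the latter was also 1.

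Leaving out 1 library gave 0 to 1 members for the line difference in cytosol with tetracycline, 1 to 1 for tetracycline in WDM, 3 to 5 for arsenite in WT cytosol, 0 to 2 for the line difference in granules with tetracycline, 1 to 4 for arsenite in WT granules, 0 to 1 for arsenite in WDM granules, 1 to 2 for WT granule against cytosol with arsenite and 3 to 4 for WDM with tetracycline. With the replicate block the line difference in granules with tetracycline had 0 members called, and the block changed no other call. Samples with the same number deviated together (r over 0.1) in 15 of 45 pairs of groups in cytosol, 6 of 18 in granules and 33 of 84 across fractions, so the numbers were not taken as pairing.

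Reversed values of SREBF2 (log2) without the 3 libraries lowest in nuclear RNA were -0.0647 for the line difference with tetracycline, 0.301 for tetracycline in WT, -0.323 for arsenite in WT cytosol, 0.248 for fraction by arsenite in WT and 0.0646 for fraction by line with tetracycline. Those of SREBF1 were -0.151, -0.0432 (arsenite in WT cytosol), -0.11 and 0.0836 (line by tetracycline and by arsenite in cytosol), -0.0512 (WT granule against cytosol with tetracycline) and 0.117 (fraction by line). Without the 3 highest SREBF2 gave -0.00184 for the line difference with tetracycline, -0.32 for fraction by arsenite in WDM and 0.00594 for fraction by line. Single libraries reversed SREBF2 for arsenite in WT cytosol (-0.00944 without WT tetracycline replicate 2, up to 0.417 without replicate 1) and for fraction by arsenite in WDM (-0.0383 without WDM tetracycline replicate 1, up to 0.364 without replicate 2), and HMGCS1 for fraction by line with tetracycline (-0.000586 without WDM tetracycline replicate 3, up to 0.207 without replicate 1). The cause was not tested. With 3 libraries a group, differences of the sizes called here, and larger ones, can be missed.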
